A study of Mus musculus with 4 samples.

Results

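*Apoe*-rich spots were selected from 4 spatial transcriptomics sections of mouse pancreas, with the aim of describing which other transcripts share a spot with *Apoe* where the usual macrophage markers are missing. A spot is a small region of tissue that holds several cells, or parts of them, so that fewer cells of a type and less RNA per cell cannot be told apart in any value given here. In each section, the spots with at least 500 UMIs (unique molecular identifiers, 1 per captured molecule) and 0 UMIs of *Cd68*, *Lyz2*, *C1qa*, *C1qb* and *Csf1r* formed a pool, and the 200 spots with the highest share of *Apoe* among their UMIs were the members. This gave 800 members among 19566 pool spots and 27040 spots of at least 500 UMIs, from 56869 spot positions listed.

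All 4 sections came from Pdx1-Cre C57Bl/6 mice aged 4 weeks that were fasted for 12 h and then given 8 hourly injections of caerulein at 50 μg/kg, a peptide that overstimulates the acinar cells and produces acute pancreatitis, with collection 18 h after the first dose. Sections of 2 Ehmt2 +/+ mice, which carry the Cre alone, were compared with sections of 2 Ehmt2 fl/fl mice, in which the Cre deletes the histone methyltransferase Ehmt2 in cells of the Pdx1-expressing pancreatic epithelium and not by design in macrophages, adipocytes or lymphocytes. *Ehmt2* itself gave 877, 38, 76 and 102 UMIs, or 19.7, 4.26, 10.6 and 11.7 CPM (UMIs scaled to a common total), in the whole sections of Ehmt2 +/+ replicates 1 and 2 and Ehmt2 fl/fl replicates 1 and 2, an order of sections kept for every series of 4 values below. These levels overlapped between the genotypes, and the members held 19, 0, 1 and 4 *Ehmt2* UMIs, so the gene did not check the genotype labels and the sections are named as labelled. Section totals were 44520453, 8914187, 7195548 and 8685493 UMIs, so Ehmt2 +/+ replicate 1 was by far the deepest. One slide carried the replicate 1 sections of both genotypes and another the replicate 2 sections. The same 13898 spot barcodes occur in all 4 sections, because they mark array positions and not cells.

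Apolipoprotein E is the protein part of lipoprotein particles that carry cholesterol and triglycerides between cells, and it is taken up by cells through surface receptors. Hepatocytes make most of the circulating protein, and macrophages, adipocytes, steroid-making cells, astrocytes and some fibroblasts and smooth muscle cells make it locally. In a single-cell data set, *Apoe* is often read as a macrophage gene, and the acinar cells that fill most of the pancreas are not among its known main sources. *Apoe* lies on chromosome 7 of GRCm38, at 19696109 to 19699188 on the minus strand.

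Most *Apoe*-positive spots above the 500 UMI floor lacked the 5 markers. *Apoe* was found in 1245, 535, 2807 and 1131 such spots, and 760, 479, 1528 and 656 of these had 0 UMIs of the 5 genes. These are 61.0% (95% Clopper-Pearson interval 58.3 to 63.8), 89.5% (86.6 to 92.0), 54.4% (52.6 to 56.3) and 58.0% (55.1 to 60.9). The share without a marker was still larger among spots that lacked *Apoe*, at 71.9, 92.1, 63.7 and 65.0%. With every spot thinned to 500 UMIs, so that depth no longer set the chance of a marker UMI, 4.24, 7.79, 27.8 and 19.5% of the *Apoe*-positive spots had a marker UMI, against 3.55, 4.57, 22.4 and 18.8% of the *Apoe*-negative ones. The share was higher beside *Apoe* in 4 of 4 sections, by 2.49 percentage points on average (SD 2.27, n = 4 sections), and a two-sided exact sign-flip permutation test gave p = 0.13, the smallest value that 4 sections allow.

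The members were thin in *Apoe*, as the rule required only 1 UMI. They held 274, 232, 510 and 281 *Apoe* UMIs, and 445 of the 800 carried a single one, 250 carried 2 and 105 carried 3 or more, with a maximum of 5, 4, 6 and 4 in a spot. In Ehmt2 fl/fl replicate 1 no member had fewer than 2 UMIs, while in Ehmt2 +/+ replicate 2 the single-UMI spots were 172 of 200. The median *Apoe* share was 4.09, 15.8, 30.7 and 15.4 per 10000 UMIs. The lowest member and the first spot left out stood at 2.53 and 2.52, 12.6 and 12.6, 23.1 and 23.1, and 11.6 and 11.6 per 10000, so the members shade into the rest without a gap, as the ranked shares show. Because the share divides by the total, shallow spots were favoured: the median member had 2905.5, 655, 786 and 740 UMIs, against 5860, 885, 977 and 1082 in the other pool spots. Raising the floor to 1000 UMIs kept 171, 13, 33 and 46 of the 200 members. These values describe the choice of members and are not a result about them.

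**Figure D1:**
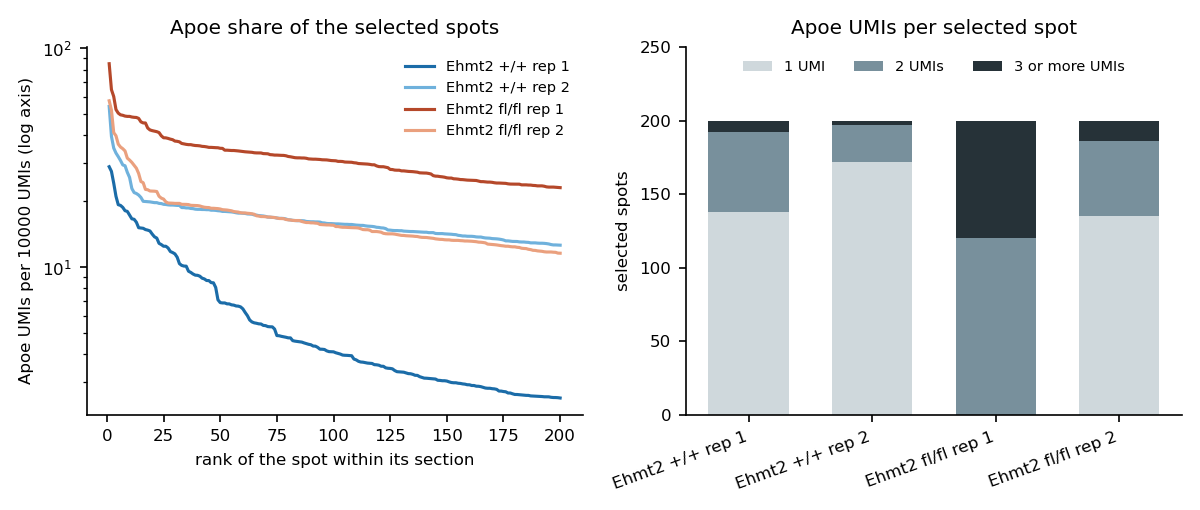
Left, *Apoe* UMIs per 10000 UMIs (log axis) of the 200 members of each section, by rank. Right, number of members with 1, 2 or at least 3 *Apoe* UMIs. Ehmt2 fl/fl replicate 1 holds the highest shares and no single-UMI member, and the curve of the deepest section, Ehmt2 +/+ replicate 1, runs lowest.

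The *Apoe* signal of the pool was above probe background. The olfactory receptor genes, 1135 features that the pancreas is not known to use, served as that background. *Apoe* stood at 32.5, 72.0, 543 and 157 CPM over the pool, and the highest single olfactory receptor gene at 1.05, 16.5, 25.8 and 42.8 CPM, so that 0 of them reached *Apoe* in any section. The variance of its counts, divided by that expected if UMIs fell on spots in proportion to their totals, was 1.66, 1.19, 1.27 and 1.19, against 22.3, 2.21, 4.05 and 6.63 for the adipocyte gene *Car3* and 260, 15.3, 136 and 31.2 for *Ins2*, an islet gene, and 5.34, 1.75, 1.86 and 1.90 for the trypsinogen *Prss2*. Sparse counts hold this ratio near 1, so it is given as a description only. Members carried *Apoe* at 422, 1652, 3124 and 1665 CPM, the other pool spots at 23.0, 40.4, 426 and 102 CPM, and the 200 spots of each section with the highest share of the 5 macrophage markers at 63.1, 146, 1012 and 253 CPM. Members held 30.6, 44.7, 24.2 and 37.1% of the pool's *Apoe* UMIs, and 560, 279, 1328 and 456 *Apoe*-positive spots lay among the others.

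The transcripts that most clearly accompanied *Apoe* were adipocyte genes. UMIs were summed over the members and over the other pool spots of each section and compared with edgeR's quasi-likelihood test with the section as a block (Benjamini-Hochberg adjusted p over 19836 genes). The test called 64 genes, 0.323% of those tested, with 4 higher (0.0202%) and 60 lower (0.302%) in the members. The balance of directions depended on the scaling: without TMM factors 181 genes were called higher and 13 lower, with the median gene at 0.283 on the log2 scale in place of -0.275. All 4 of the genes called higher and *Fabp4* and *Igkc* were called higher without TMM too, and of the lists described below 7 of 20 macrophage, 5 of 12 fibroblast, 3 of 13 lymphoid and 3 of 10 adipocyte genes were, with medians of 0.61, 0.73, 0.68 and 1.22. Therefore, a second comparison paired each member with the pool spot of nearest total UMIs that was not a member. There the median gene stood at 0.006, and 28 of 3025 genes (0.926%) were called, 11 higher (0.364%) and 17 lower (0.562%). All 4 genes that were higher in the first comparison were among the 11 of the second, and 14 of the lower genes were called in both. Fold changes below are from the first comparison unless the nearest-total spots are named. Both comparisons use the same members.

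*Car3*, a carbonic anhydrase that is among the most abundant transcripts of mouse fat, stood at 77.4, 186, 216 and 1034 CPM in members and at 2.12, 23.1, 58.2 and 110 CPM in the other pool spots. It was higher in members in every section, by 2.72 on the log2 scale (SE 0.30, adjusted p = 2.41e-15 by edgeR), and by 2.54 against the nearest-total spots (adjusted p = 1.3e-28). *Cfd*, the secreted complement factor D or adipsin of fat cells, was at 13.9, 100, 117 and 179 CPM in members against 0.745, 13.3, 42.3 and 41.4 CPM, a log2 difference of 1.95 (SE 0.37, adjusted p = 0.000161). *Fabp4*, the fatty acid binding protein of adipocytes and capillaries, was at 122, 308, 426 and 1099 CPM against 37.8, 77.1, 259 and 284 CPM. Its log2 difference of 0.97 missed the threshold in the first comparison (adjusted p = 0.058) and passed it against the nearest-total spots, at 1.18 (adjusted p = 4.51e-11). In all 3 genes, each section's members lay above its other spots. Across sections the ranges of members and other spots overlapped, and the members of both Ehmt2 +/+ sections stood below those of both Ehmt2 fl/fl sections.

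Few spots carried these transcripts. *Car3* had a UMI in 11, 9, 14 and 32 of the 200 members, or 5.5, 4.5, 7 and 16%, against 1.13, 1.98, 4.41 and 6.09% of the other spots. A single spot supplied 44.0, 30.8, 48.6 and 10.4% of the members' *Car3* UMIs and 33.3, 50, 36.8 and 10% of their *Cfd* UMIs. *Cfd* was found in 5, 6, 8 and 21 members, and *Fabp4*, the widest, in 40, 24, 40 and 52 members, or 20, 12, 20 and 26%, against 20.4, 7.16, 20.7 and 21.7% of the deeper other spots. At least 1 of the 3 genes was present in 182 of the 800 members. The same genes stood above background: 0 olfactory receptor genes reached *Car3*, *Cfd* or *Fabp4* in the members of any section.

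The whole adipocyte list of 10 genes was higher in the members of every section, with a summed level of 228, 703, 846 and 2587 CPM against 43.2, 159, 437 and 557 CPM. The ratio was 5.27, 4.43, 1.94 and 4.64, and against the nearest-total spots 4.59, 4.09, 1.90 and 2.93. Its size depended on the spots used. The mean log2 ratio was 1.92, and became 2.63 with 100 and 1.26 with 400 members per section. It was 1.17 with at least 1000 UMIs and 1.33 without the digestive enzymes, higher in 4 of 4 sections each time. Of its 10 genes tested, 2 were called higher and 0 lower, with a median log2 difference of 0.83 beside -0.275 over all genes, and all 3 that could be tested against the nearest-total spots were called higher (median 1.40 beside 0.006). *Fabp4* was the most abundant of the list. On GRCm38, *Car3* lies on chromosome 3 at 14863512 to 14872523 and *Cfd* on chromosome 10 at 79890853 to 79892655, both on the plus strand, and *Fabp4* on chromosome 3 at 10204088 to 10208576 on the minus strand. The defining fat genes were sparse: adiponectin, *Adipoq*, gave 3, 4, 3 and 9 UMIs in members, leptin, *Lep*, gave 0, 4, 1 and 5, and the lipid droplet coat gene *Plin1* gave 0, 1, 0 and 6. *Adipoq* stood at 4.65, 28.7, 18.5 and 53.8 CPM in members against 0.410, 6.93, 13.7 and 22.3 CPM in the other spots (log2 difference 1.05, adjusted p = 0.449 by edgeR).

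**Figure D2:**
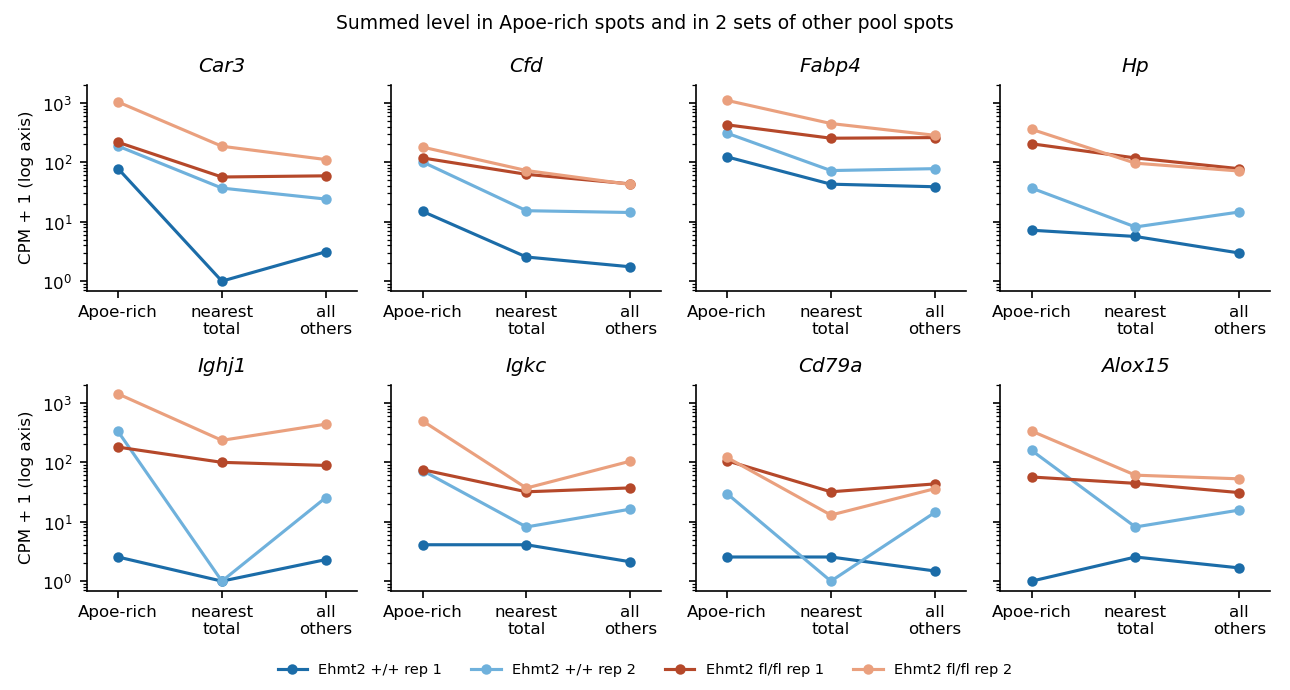
Level of 8 genes (CPM + 1, log axis) summed over the *Apoe*-rich spots, the pool spots of nearest total UMIs and all other pool spots, with 1 line per section. *Car3*, *Cfd* and *Fabp4* lie highest in the *Apoe*-rich spots of all 4 sections, whereas *Ighj1* and *Igkc* are near the floor in Ehmt2 +/+ replicate 1 and *Alox15* has 0 UMIs in its members.

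Immunoglobulin and B cell transcripts formed a second set, in fewer sections. *Ighj1*, a joining segment of the immunoglobulin heavy chain locus, stood at 1.55, 330, 179 and 1416 CPM in members and at 1.30, 24.5, 87.5 and 437 CPM in the other spots, a log2 difference of 1.54 (SE 0.31, adjusted p = 0.00039 by edgeR) and of 2.36 against the nearest-total spots (adjusted p = 6.74e-26). *Igkc*, the kappa light chain constant region, was at 3.10, 71.7, 74.1 and 496 CPM against 1.12, 15.3, 36.1 and 103 CPM, with adjusted p = 0.0764 in the first comparison and a log2 difference of 2.74 (adjusted p = 2.57e-12) in the second. In Ehmt2 +/+ replicate 1 these values rest on 1 *Ighj1* UMI in 1 spot and on *Igkc* in 2 spots, and 285 and 53 olfactory receptor genes were at or above the 2 genes there, against 0 in the other 3 sections. The other sections had *Ighj1* in 13, 9 and 29 members, and a single spot supplied 45.7, 37.9 and 13.9% of the members' *Ighj1* UMIs there. *Cd79a*, a chain of the B cell receptor, was called only against the nearest-total spots (log2 difference 2.20, adjusted p = 0.0226), where it was at 1.55, 28.7, 105 and 119 CPM in members and 1.55, 0, 30.9 and 12.0 CPM in the paired spots. In the members of the Ehmt2 +/+ sections, 285 and 68 olfactory receptor genes were at or above it, against 0 in the Ehmt2 fl/fl sections.

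The lymphoid list summed to 32.5, 294, 426 and 1201 CPM in members against 16.7, 120, 276 and 423 CPM, a ratio of 1.95, 2.46, 1.54 and 2.84. Of its 13 genes tested in the first comparison 0 were called, and 2 of 2 were called higher against the nearest-total spots. With the spots chosen again and summed without the digestive enzymes, the mean log2 ratio of the list fell from 1.08 to 0.38, higher in 3 of 4 sections. Fat and immunoglobulin transcripts met in the same spots in part: 78 members carried *Ighj1*, *Igkc* or *Cd79a*, and 44 of them also carried *Car3*, *Cfd* or *Fabp4*. Together the 2 sets reached 216 members, or 22.5, 20, 29 and 36.5% of them, against 22.6, 12.6, 28.7 and 32.0% of the deeper other spots, so the share of spots with any of these genes was close to that of the others in Ehmt2 +/+ replicate 1 and Ehmt2 fl/fl replicate 1. *Alox15*, a lipid-oxidizing enzyme of resident peritoneal macrophages and eosinophils, was the remaining gene called higher in the first comparison, at 0, 158, 55.6 and 335 CPM in members against 0.670, 14.7, 29.9 and 51.7 CPM (log2 difference 1.82, SE 0.40, adjusted p = 0.00245). It was singled out after its values were seen, since it was absent from the members of Ehmt2 +/+ replicate 1. Of the 40 members that carried it, 26 had a fat gene and 24 an immunoglobulin gene of the sets above. A single spot supplied 40.9, 33.3 and 32.1% of the members' *Alox15* UMIs in the sections that had any.

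Other genes called higher against the nearest-total spots came from several sources. *Hp*, haptoglobin, an acute phase protein of liver and fat, was at 6.20, 35.8, 204 and 358 CPM in members against 4.65, 7.16, 117 and 95.6 CPM in the paired spots (log2 difference 1.26, adjusted p = 0.00146 by edgeR). *Nnmt*, a nicotinamide methyltransferase of fat and liver, was at 15.5, 64.5, 105 and 173 CPM against 3.10, 21.5, 49.4 and 65.7 CPM (1.30, adjusted p = 0.0306). *Gpx3*, a secreted glutathione peroxidase, was at 54.2, 50.2, 49.4 and 263 CPM against 32.5, 7.16, 55.6 and 83.6 CPM (0.94, adjusted p = 0.0422), and was thus not higher in Ehmt2 fl/fl replicate 1. *Cd74*, the invariant chain of antigen-presenting cells, was at 79.0, 280, 1050 and 568 CPM against 65.1, 93.1, 667 and 394 CPM (0.52, adjusted p = 0.0487). None of these 4 passed in the first comparison. The acute phase gene *Saa1* (1.56, adjusted p = 0.078) and the haemoglobin gene *Hba-a2* (1.05, adjusted p = 0.19) did not pass the test there. The whole red blood cell list, with *Hba-a2* as its top gene, had summed ratios of 4.19, 2.68, 1.08 and 3.35 over the other spots and of 1.31, 3.4, 0.895 and 2.84 over the nearest-total spots. With the spots chosen again and summed without the digestive enzymes, its mean log2 ratio fell from 1.32 to 0.67, higher in 2 of 4 sections. Of its 5 genes tested 0 were called, and 3 were called higher without TMM.

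Macrophage transcripts beyond the 5 genes of the rule were present in most members, except in Ehmt2 +/+ replicate 2. At least 1 UMI of the other macrophage genes listed was found in 139, 76, 188 and 166 members, 569 of 800, so the spots lack the 5 markers and not every macrophage transcript. The other spots, which were deeper, were close to this: the mean share was 71.1% of members and 69.7% of other spots, with members higher in 2 of 4 sections. The list summed to 500, 760, 4163 and 2659 CPM in members against 265, 420, 2673 and 2104 CPM, a ratio of 1.89, 1.81, 1.56 and 1.26, with *Lgals3* as its most abundant gene and members higher in all 4 sections. Single genes did not pass: 0 of 20 were called, with a median log2 difference of 0.10 beside -0.275 over all genes, and 0 of 13 against the nearest-total spots, with a median of 0.29 beside 0.006. In the first comparison 12 of the 20 had a log2 difference above 0, those named next among them, and the rest did not. Against the nearest-total spots 12 of 13 had one. *Mrc1*, the mannose receptor of resident macrophages, stood at 15.5, 35.8, 210 and 191 CPM in members against 5.25, 10.6, 69.2 and 106 CPM (log2 difference 0.83, adjusted p = 0.449 by edgeR), and *Fcgr1*, a high-affinity antibody receptor, at 32.5, 78.9, 371 and 221 CPM against 13.3, 26.9, 215 and 161 CPM (0.37, adjusted p = 0.743). *Trem2*, a lipid-sensing receptor of macrophages, was at 9.29, 14.3, 86.5 and 47.8 CPM against 2.68, 9.90, 36.9 and 34.1 CPM (0.50, adjusted p = 0.766).

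The olfactory receptor genes, the background above, also took a larger share of the members' UMIs. They summed to 541, 10180, 11988 and 17355 CPM in members against 321, 5597, 9357 and 14126 CPM in the other spots, a ratio of 1.68, 1.82, 1.28 and 1.23, and of 1.09, 1.36, 1.13 and 1.06 against the nearest-total spots. Over the other spots, the macrophage ratio was above the olfactory receptor ratio in 3 sections, by little in Ehmt2 fl/fl replicate 2 (1.26 against 1.23), and not in Ehmt2 +/+ replicate 2 (1.81 against 1.82). The macrophage ratios against the nearest-total spots were 1.45, 1.63, 1.37 and 1.10, above the olfactory receptor ratio of the same section in 4 of 4, and the adipocyte ratios were above it in 4 of 4 as well. The part of this background in the list ratios was not tested. Of the olfactory receptor genes themselves, 0 of 1081 were called in the first comparison. Their median log2 difference of 0.03 was also above the -0.275 over all genes. The macrophage median of 0.10 and the fibroblast median of 0.17 lay close to this background, the lymphoid median was 0.23 and the adipocyte median 0.83. Against the nearest-total spots, 0 olfactory receptor genes could be tested.

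Thinning every spot to 500 UMIs gave the share of spots with a list without the difference in depth. A macrophage-list UMI was found in 23.0, 27.5, 84.0 and 72.0% of members and in 14.9, 19.4, 70.4 and 63.3% of the other spots, a mean gain of 9.63 percentage points (SD 2.69, 4 of 4 sections). The adipocyte list gave 7.0, 16.0, 21.0 and 31.0% against 2.28, 7.53, 17.5 and 19.3%, a gain of 7.10 points (SD 3.71), and the lymphoid list 2.5, 14.5, 13.5 and 27.5% against 0.833, 6.14, 10.8 and 13.7%, a gain of 6.62 points. The fibroblast list, with *Col1a2* as its top gene, gave 36.5, 45.5, 70.0 and 70.0% against 24.8, 27.0, 65.8 and 63.8%, a gain of 10.2 points. At this thinning members had the higher share of spots in all 4 sections for each of these lists, with exact sign-flip permutation p = 0.13 for each, the smallest possible, and 0.271 after adjustment over 26 lists. Against the nearest-total spots, thinned alike, the macrophage gain was smaller, at 4.5 points. The adipocyte, lymphoid and fibroblast gains were 6.625, 6.625 and 6.875 points there, and all of these gains held in 4 of 4 sections. With a floor of 1000 UMIs the adipocyte gain was 3.32 points in 3 of 4 sections, and after thinning to UMIs of other genes than enzymes the adipocyte and fibroblast gains held in 3 of 4. In all, 12 lists had a higher share in every section and 0 had a lower one. Besides those above, these were the smooth muscle, glial, neuron, beta cell, hepatocyte, adrenal cortex, red blood cell and *Apoe* receptor lists. Their mean gains ran from 0.87 points (neuron) to 5.13 points (beta cell), so the gain was shared by lists of unlike cell types. The share of spots with olfactory receptor genes was not taken. Without thinning, where the other spots were deeper, 0 lists had a higher share and 4 a lower share in every section. The mean shares were then 71.1% of members and 69.7% of other spots for the macrophage list, 27.5 and 25.3% for the adipocyte list, 20% and 16.3% for the lymphoid list and 74.9 and 74.0% for the fibroblast list, with members higher in 2, 3, 3 and 2 of 4 sections. The fibroblast list also had a higher summed level in members, with ratios of 2.08, 2.08, 1.21 and 1.35, and 0 of its 12 genes were called. In Ehmt2 fl/fl replicate 1 this ratio was below the olfactory receptor ratio of 1.28.

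In the unthinned spots, 569 members had a macrophage-list UMI, 220 an adipocyte-list UMI and 160 a lymphoid-list UMI, and 162 had none of the 3. Macrophage genes without the other 2 lists marked 330 members, adipocyte genes alone 44 and lymphoid genes alone 17, while 168 had adipocyte and macrophage genes together. These combinations are given for the members only, so they are a description. The shares of the other spots with each single list, given above, were close to those of the members without thinning. The members without any of the 3 lists numbered 50, 88, 7 and 17, and so lay mostly in the Ehmt2 +/+ sections. Each of these 3 lists was thus missing from some members.

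**Figure D3:**
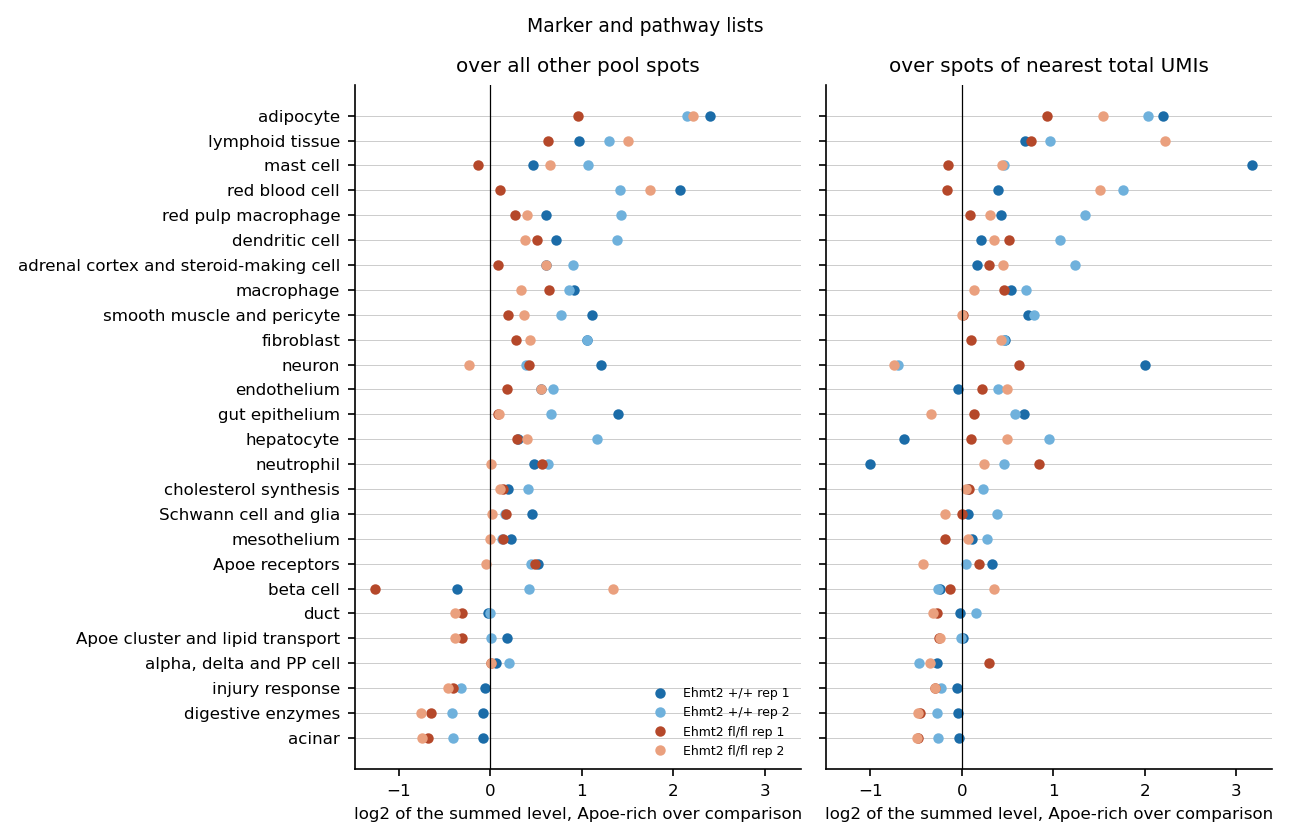
Log2 ratio of the summed level of 26 gene lists in *Apoe*-rich spots over all other pool spots (left) and over the pool spots of nearest total UMIs (right), 1 point per section. The adipocyte and lymphoid lists lie right of 0 in all 4 sections in both panels, and the acinar, digestive enzyme and injury response lists lie left of it.

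Acinar transcripts took a smaller share of the members' UMIs, in part by the choice of members, since the *Apoe* share divides by a total that holds the abundant enzymes. *Ctrb1*, chymotrypsinogen B, made up 351100, 228500, 97894 and 87452 CPM of members and 355850, 300730, 158030 and 150010 CPM of the other spots, a log2 difference of -1.10 (adjusted p = 4.7e-10 by edgeR) and, without TMM, of -0.47 (adjusted p = 0.157). The difference was small in Ehmt2 +/+ replicate 1 and plain in the other 3 sections. Of the acinar list, 10 of 13 genes fell and 0 rose, with a median of -1.11 beside -0.275 over all genes and 0.302% of genes called lower, and its summed ratio was 0.948, 0.752, 0.625 and 0.593. Of 31 digestive enzyme genes 22 fell, and of 18 injury response genes 8 fell. Without TMM, 6, 10 and 1 genes of these lists were lower, and 2 injury response genes were higher (*Saa3* and *S100a6*). Against the nearest-total spots, 3 of 11, 10 of 26 and 2 of 17 genes of these lists fell, among them *Zg16*, a zymogen granule lectin (-0.54, adjusted p = 0.00146), and *Reg3b*, a secreted lectin induced in injured acinar cells (-0.53, adjusted p = 0.00634). The lower calls rested on the sections and spots used: over all genes, 26, 0, 1 and 0 were lower against the nearest-total spots with each section left out in turn, and 0 were lower in the first comparison with a floor of 1000 UMIs or with at least 2 *Apoe* UMIs. *Ctrb1* did not pass there (adjusted p = 0.10). With the spots chosen again and summed without the digestive enzymes, the remaining acinar genes had a mean log2 ratio of -0.11 (SD 0.41, higher in 1 of 4 sections), against -0.48 (SD 0.31, higher in 0 of 4) for the whole list. The digestive enzymes took 61.1, 40.9, 15.5 and 13.7% of the members' UMIs and 64.6, 54.7, 24.4 and 23.2% of those of the other spots.

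The 8 largest falls by the naming rule are given gene by gene, and a shared role was not tested. They comprised *Krt20*, an epithelial keratin (-2.30, adjusted p = 0.0024), the regenerating lectins *Reg2* (-1.28, adjusted p = 7.2e-05) and *Reg3g* (-1.28, adjusted p = 0.00026), *Dmbt1*, a secreted mucosal scavenger protein (-1.26, adjusted p = 3.4e-05), and *Chst2*, *Epb41l4b*, *Ube2j1* and *Tmed6* with log2 differences of -1.87, -1.65, -1.45 and -1.33. Of these 8, only *Krt20* was called without TMM (-1.51, adjusted p = 0.0115 by edgeR), and none was among the 14 genes called lower against the nearest-total spots as well. With the digestive enzymes left out of the totals, 5 genes were called: *Car3* was higher, and the islet genes *Ins1*, *Ins2*, *Iapp* and *Chga* were lower. The beta cell list had no steady direction, with summed ratios over the other spots of 0.775, 1.34, 0.417 and 2.53 and, after thinning, a UMI in 23% of members and 17.9% of the other spots (higher in 4 of 4 sections). An alternative that set all 3423 *Apoe*-positive pool spots against *Apoe*-negative ones of nearest total, added after the data were seen, called 21 of 18275 genes (0.115%), 12 higher (0.0657%) and 9 lower (0.0492%). *Car3*, *Cfd*, *Fabp4*, *Ighj1*, *Igkc*, *Alox15* and *Hp* were among the 12. *Car3* was called in each of the 20 fits tried, with log2 differences of 1.68 to 3.28. *Ighj1* was called in 14 of 20 and *Cfd* in 14 of 19, *Alox15* in 13 of 17, *Fabp4* in 10 of 20 and *Igkc* in 9 of 19.

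Few genes of *Apoe* biology itself passed the test. Of 23 genes of the *Apoe* gene cluster and of lipid transport, 0 were called higher and 1 lower, with a median log2 difference of -0.26 beside -0.275 over all genes. The one called was *Clu*, clusterin or apolipoprotein J, at 16337, 10611, 9573 and 6805 CPM in members against 14406, 10766, 12685 and 9531 CPM (-0.81, adjusted p = 0.00358 by edgeR), but its CPM was higher in the members of Ehmt2 +/+ replicate 1, and it missed the threshold against the nearest-total spots (-0.29, adjusted p = 0.321) and without TMM (-0.18, adjusted p = 0.651). Without TMM, 1 of the 23 was called higher, *Npc2*, a lysosomal cholesterol carrier. *Apoc1*, the neighbour of *Apoe* that is made with it in macrophages and liver, was at 1.55, 14.3, 12.3 and 29.9 CPM against 1.64, 7.64, 19.7 and 19.5 CPM (adjusted p = 0.924). *Abca1*, which loads cholesterol onto apolipoproteins, was at 15.5, 0, 49.4 and 53.8 CPM against 5.85, 4.95, 25.0 and 18.6 CPM (adjusted p = 0.759). Of 9 *Apoe* receptor genes 0 were called (median -0.23), and of 15 cholesterol synthesis genes 0 were called. The hepatocyte list, which would mark liver carried along, had a ratio of 1.23, 2.25, 1.22 and 1.32 over the other spots. In both replicate 1 sections this was below the olfactory receptor ratio. Over the nearest-total spots the ratio was 0.647, 1.94, 1.08 and 1.41, and so turned in Ehmt2 +/+ replicate 1.

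Read from the other side, the pool spots richest in fibroblast, adipocyte and macrophage genes carried more *Apoe* than the rest of the pool, and those richest in acinar genes carried less. For each list, the 200 pool spots with the highest share of the list's UMIs were taken, and *Apoe* was compared with the rest of the pool as a description. The ratio was above 1 in every section for 15 of the 26 lists, the endothelial, smooth muscle, glial and mast cell lists included, and below 1 in every section for 2. The *Apoe* ratio was 4.76, 2.75, 1.44 and 2.11 for fibroblast genes, 2.76, 3.28, 1.39 and 2.92 for adipocyte genes and 3.41, 2.82, 1.87 and 1.38 for macrophage genes. For lymphoid genes it was 1.19, 3.58, 1.23 and 2.88, and for the red pulp macrophage list 2.01, 2.98, 1.48 and 1.85. For acinar genes it was 0.625, 0.613, 0.324 and 0.542. An *Apoe* UMI was present in 19.5, 12, 42 and 28.5% of the adipocyte-rich spots, in 12, 11, 56.5 and 17% of the macrophage-rich spots and in 11, 6, 19 and 15% of the acinar-rich spots. Among the adipocyte-rich, macrophage-rich and acinar-rich spots, the acinar-rich ones were nevertheless the deepest. Their median totals were 5061.5, 1288.5, 1262 and 1523 UMIs against 1104.5, 667, 782.5 and 786.5 in the macrophage-rich spots. Of the members, which were 4.67, 2.75, 5.16 and 4.83% of the pool, 42, 20, 19 and 24 of 200 were among the fibroblast-rich spots, 30, 18, 17 and 30 among the adipocyte-rich spots, 23, 16, 21 and 18 among the macrophage-rich spots and 5, 0, 1 and 2 among the acinar-rich spots.

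**Figure D4:**
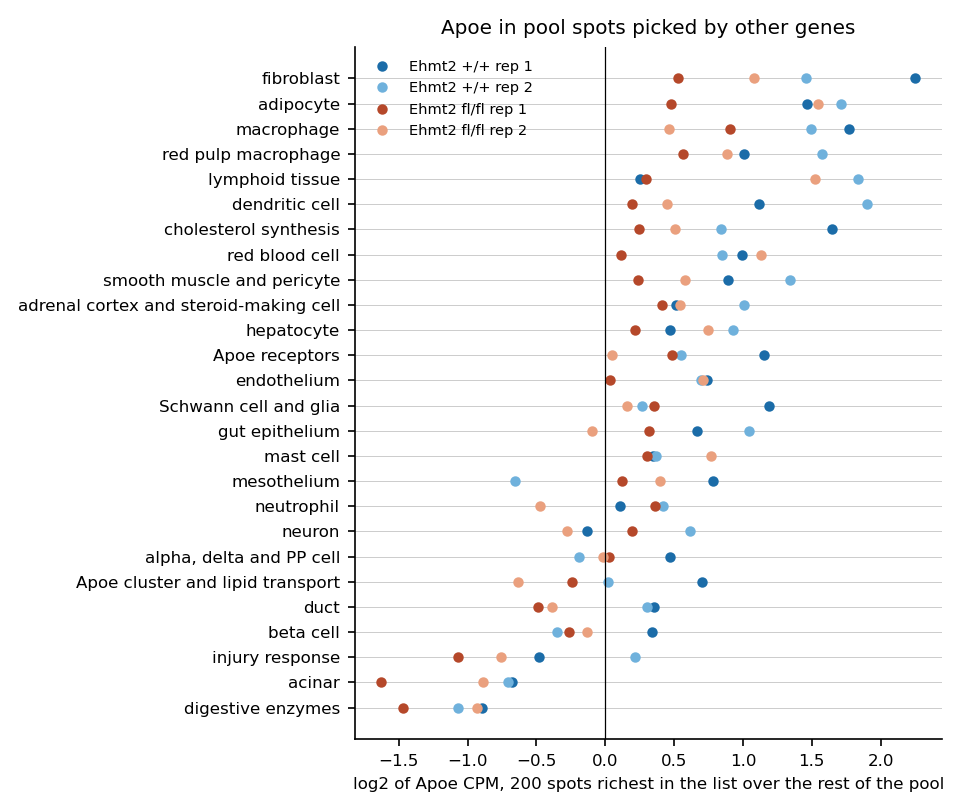
Log2 ratio of *Apoe* CPM in the 200 pool spots richest in each gene list over the rest of the pool, 1 point per section. The fibroblast, adipocyte and macrophage lists lie right of 0 in all 4 sections, and the acinar and digestive enzyme lists lie left of it in all 4.

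Compared with the 200 spots of each section richest in the 5 macrophage markers, the members had higher levels of *Car3* and *Fabp4* and lower levels of some myeloid genes. Lower macrophage transcripts follow from the choice of spots on both sides and are a description. That comparison called 8 of 3341 genes (0.239%), 4 in each direction (0.12% each). *Car3* was at 77.4, 186, 216 and 1034 CPM in members against 15.3, 232, 36.4 and 478 CPM in the marker-rich spots (log2 difference 1.17, adjusted p = 0.00118 by edgeR), with Ehmt2 +/+ replicate 2 in the opposite direction. *Fabp4* was higher by 0.72 (adjusted p = 0.00894), *Ighj1* by 1.06 (adjusted p = 0.00209) and the trypsinogen *Prss3* by 0.36 (adjusted p = 0.0388). The small GTPase gene *Rap1b* fell by 0.81 (adjusted p = 0.00118), the protease inhibitor gene *Slpi* by 0.73 (adjusted p = 0.00894), the lysosomal protease gene *Ctss* by 0.63 (adjusted p = 0.037) and the chemokine gene *Ccl6* by 0.48 (adjusted p = 0.037). DESeq2 called 0 genes in this comparison (37 at an unadjusted p under 0.05). Leaving out Ehmt2 +/+ replicate 1 or Ehmt2 fl/fl replicate 2 also left 0 calls, and leaving out Ehmt2 +/+ replicate 2 gave 25. Of the other macrophage genes, 1 of 14 was called lower (*Ctss*), with a median of -0.54. The lymphoid list summed to 32.8, 348, 528 and 569 CPM in the marker-rich spots, at or above the members' 32.5, 294, 426 and 1201 CPM in 3 of 4 sections.

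Between the genotypes, acinar genes had lower and several myeloid genes higher values in the members of the sections labelled Ehmt2 fl/fl, but the test with 2 sections a group called none. *Maf*, a transcription factor of macrophages and lymphocytes, stood at 44.9 and 50.2 CPM in members of the Ehmt2 +/+ sections and at 593 and 460 CPM in those labelled Ehmt2 fl/fl. *Cxcl14*, a chemokine made by fibroblasts and epithelium, was at 20.1 and 35.8 CPM against 432 and 478 CPM, and *Mrc1* at 15.5 and 35.8 CPM against 210 and 191 CPM. *Ctss* was at 60.4 and 78.9 CPM against 772 and 382 CPM. In the other direction, *Reg2* was at 1575 and 903 CPM against 86.5 and 77.7 CPM, the trefoil factor gene *Tff2* at 1018 and 896 CPM against 179 and 173 CPM, and *Rbpjl*, an acinar transcription factor, at 113 and 86.0 CPM against 6.18 and 5.97 CPM. The ribonuclease gene *Rnase1* was at 1767 and 1226 CPM against 278 and 281 CPM, and the kallikrein gene *Klk1* at 1752 and 1140 CPM against 229 and 257 CPM. The groups did not overlap in any of these genes, but for the genes that the rule took from this comparison that was a condition and is not a result. The rule took 5 higher genes, the Y-linked ones below among them, so not every higher gene above entered by it. *Ctss* is among the most abundant genes of the macrophage list, and genes outside the rule were named after their values were seen. The share of all tested genes without overlap is not given.

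The log2 differences, Ehmt2 fl/fl minus Ehmt2 +/+, were 2.40 for *Maf*, 3.11 for *Cxcl14*, 2.14 for *Mrc1* and 2.02 for *Ctss*, and -5.01 for *Reg2*, -3.49 for *Tff2*, -5.00 for *Rbpjl*, -3.50 for *Rnase1* and -3.65 for *Klk1*. TMM scaling moved all of these down by about 1: without it the median gene stood at 1.01, *Maf* at 3.48, *Cxcl14* at 4.17, *Reg2* at -3.92 and *Tff2* at -2.44, and 145 genes were called higher and 24 lower. edgeR called 0 of 2393 genes (0%), with 0.0549 as the lowest adjusted p and 420 genes at an unadjusted p under 0.05, while DESeq2 called 74, 15 higher and 59 lower. With the slide as a block, a fit added after the data were seen, edgeR called 117 genes (4.89%), 43 higher (1.8%) and 74 lower (3.09%) in the Ehmt2 fl/fl sections, among them *Reg2* (adjusted p = 3.7e-05), *Cxcl14* (adjusted p = 0.00075) and *Maf* (adjusted p = 0.0022). In that fit, 4 of 13 macrophage genes were higher (*Fcer1g*, *Mrc1*, *Ctss* and *Pf4*, with a median of 1.60 beside 0.001 over all genes). Of 11 acinar genes 10 were lower (median -3.21), and of 25 digestive enzyme genes 19 were lower and 1 was higher. The block leaves fewer residual degrees of freedom than the 2 of the fit without it. The p-values with the block therefore lean on variance estimates shared across genes. The digestive enzyme share of the members given above moved with the genotype, and its part in these differences was not tested.

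Y-linked transcripts moved with the genotype too. The 725 Y-linked genes gave 1, 0, 253 and 576 UMIs in the members, and in the whole sections *Ddx3y* gave 1, 0, 60 and 100 UMIs, *Eif2s3y* 1, 0, 108 and 150, *Kdm5d* 0, 1, 36 and 67 and *Uty* 0, 0, 79 and 120. The genes named by the rule held 3 Y-linked features: *Gm20854* at 0, 0, 457 and 830 CPM, *Gm21310* at 0, 0, 445 and 980 CPM and *Gm20914* at 0, 0, 216 and 526 CPM. Y-linked signal was thus present in both Ehmt2 fl/fl sections and near 0 in both Ehmt2 +/+ sections, and *Xist*, the transcript of the inactive X chromosome, is listed at 0 UMIs in all 4 sections. A difference in sex and one in genotype cannot be told apart here.

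**Figure D5:**
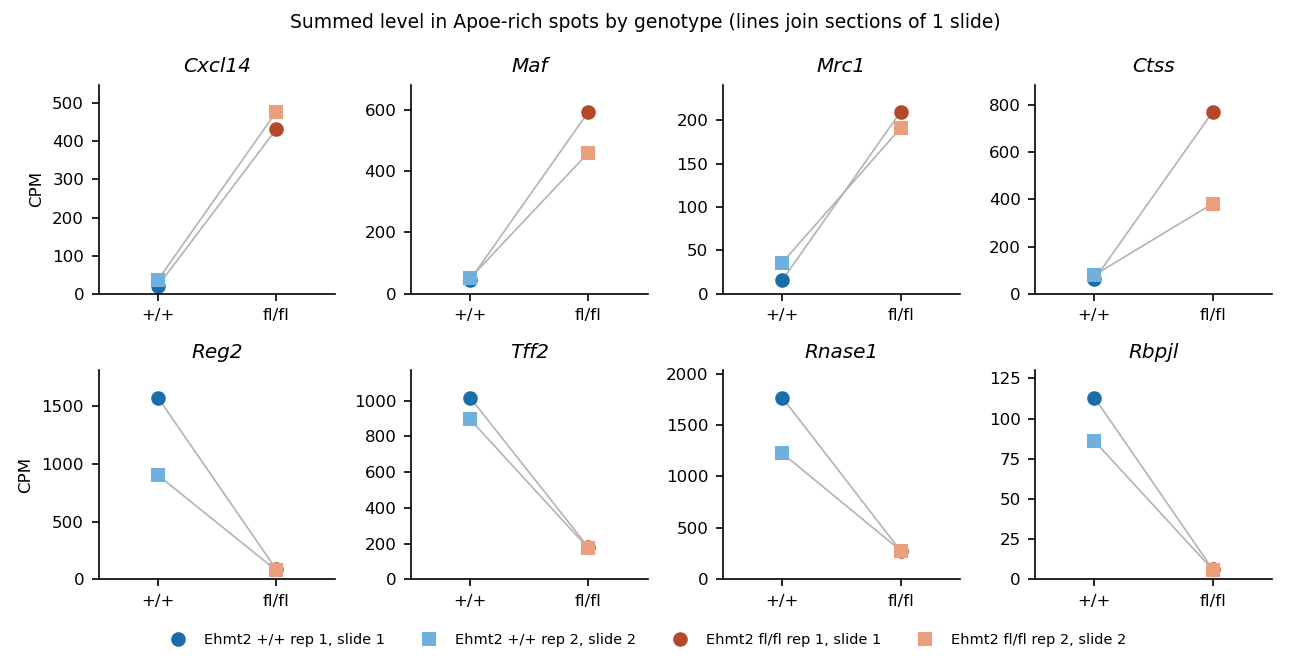
Level (CPM) of 8 genes summed over the *Apoe*-rich spots of each section, with a line joining the sections of 1 slide. *Cxcl14*, *Maf*, *Mrc1* and *Ctss* are higher in both Ehmt2 fl/fl sections, and *Reg2*, *Tff2*, *Rnase1* and *Rbpjl* are higher in both Ehmt2 +/+ sections.

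The contrast of members with other spots was not shown to depend on genotype. A test of that difference across 19836 genes called 0 (0%) by edgeR, with 1691 at an unadjusted p under 0.05, and 0 by DESeq2, with 175. The count depended on the setting. It was 444 with at least 2 *Apoe* UMIs, 443 of them with the higher contrast in the Ehmt2 fl/fl sections. Without TMM it was 8, all with the lower contrast there, and with 100 spots per section 4, all with the higher one. Among the genes named by the rule as values, *Pabpc1*, a poly(A) binding protein gene, and *Jak1*, a cytokine receptor kinase gene, had log2 differences of contrast of 1.71 and 1.67 (adjusted p = 0.253 for both), and *Gngt2*, *Reg3d* and *Ccdc88b* had -1.25, -1.18 and -1.52 (adjusted p = 0.458, 0.479 and 0.545). With a section left out, 1 genotype is left with a single section that is assumed to vary like the others: without Ehmt2 +/+ replicate 1 it called 3 genes and without Ehmt2 +/+ replicate 2 it called 636. Between all *Apoe*-positive pool spots and *Apoe*-negative ones of nearest total, the test called 6 genes (0.0328%), all with the lower contrast in the Ehmt2 fl/fl sections (0.0328%). The adipocyte ratios over the other spots, 5.27 and 4.43 in the Ehmt2 +/+ sections and 1.94 and 4.64 in the Ehmt2 fl/fl sections, overlapped between the groups.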

How the data were processed

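Formalin-fixed paraffin sections were profiled with probe-based Visium on the CytAssist instrument. The files hold UMI counts, deposited as whole numbers for every feature in every spot, which the authors made with Space Ranger 2.0.1 on mm10 per the file headers. These raw matrices list spots on and off the tissue, and the deposited alignment marks do not name barcodes, so a floor of 500 UMIs stood in for tissue. Each of the 4 sections, 2 per genotype, was 1 replicate, and spots were never replicates. p-values measure the spread between these sections, with variance estimates shared across genes in edgeR and DESeq2.

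UMIs were summed per section and class of spots over 32589 features, of which 304 marked as deprecated took 0.477 to 0.803% of the UMIs. Sums were tested with edgeR 4.0.16 (R 4.3.3; TMM scaling, quasi-likelihood fit, filter with a minimum count of 10, section as block, Benjamini-Hochberg adjusted p below 0.05), with DESeq2 1.42.0 as an alternative. The genotypes were compared without a block, and the genotype difference of the contrast as an interaction. Named genes had an adjusted p below the threshold, an average of at least 20 CPM and 1 direction in all 4 sections (groups that did not overlap, for the genotypes), and were the 12 with the largest rise and the 8 with the largest fall in the main comparison and 5 in each direction in the others, filled up by p with genes that are given as values, plus the 4 most abundant genes of each list. Genes outside this rule were named after their values were seen. Shares of spots were taken after thinning to 500 UMIs and compared by an exact sign-flip permutation test over sections, and intervals are 95% Clopper-Pearson. Intervals cover counting error only. Alternatives changed the scaling, the filter, the number of members (100 or 400), the floor (1000 UMIs), the *Apoe* minimum, the enzyme genes, the comparison spots, the slide block and the sections included. The code was tested on simulated data. Summaries used Python 3.11.15, numpy 2.4.6, pandas 2.3.3 and scipy 1.17.1. The members and the 26 gene lists were chosen with earlier results of these data known. Positions are those of GRCm38.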

Additional observations from a re-analysis of the deposited data

Results flagged for a closer look

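The summed level of the genes of the *Apoe* cluster and of lipid transport in the *Apoe*-rich spots over the other pool spots had a ratio of 1.13 and 1.01 in the Ehmt2 +/+ sections and of 0.803 and 0.763 in the Ehmt2 fl/fl sections, a mean log2 difference of -0.45 (Ehmt2 fl/fl minus Ehmt2 +/+). It was singled out because both sections of one genotype lay above 1, one of them barely, and both of the other below it, and the difference was not tested. Against the spots of nearest total the ratios were 1.01, 0.994, 0.844 and 0.846, so that the second Ehmt2 +/+ section lay below 1 as well. *Clu* supplied most of the list's UMIs, so the sum follows this gene, at 16337, 10611, 9573 and 6805 CPM in the members against 14406, 10766, 12685 and 9531 CPM in the other spots.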

How the results depend on the processing

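The contrast with the other pool spots called 64 genes as reported, 194 with library sizes without TMM (181 higher and 13 lower, against 4 and 60), 123 with the 100 highest-scoring spots, 5 with at least 1000 UMIs and 1 with at least 2 *Apoe* UMIs (0 of them lower), 5 without the digestive enzymes, 28 against spots of nearest total and 21 with all *Apoe*-positive spots (added after seeing the data). With a section left out it called 18 (Ehmt2 +/+ replicate 2), 22 (Ehmt2 fl/fl replicate 1), 45 (Ehmt2 fl/fl replicate 2) or 111 (Ehmt2 +/+ replicate 1), and against nearest totals 34, 5, 10 and 4 (26, 0, 1 and 0 lower) in the order of the sections left out (added). *Car3*, *Fabp4* and *Ighj1* were called in all 4 of the latter. The genotype difference of the contrast called 0 genes as reported, 8 without TMM, 4 with 100 spots, 1 with at least 1000 UMIs, 444 with at least 2 *Apoe* UMIs, 6 with all *Apoe*-positive spots, and 0 to 636 with a section left out. Within the members, the genotypes gave 0 calls as reported, 74 by DESeq2, 169 without TMM (145 higher and 24 lower, with the median gene at 1.01), 21 with no filter, 39 with 100 spots, 84 with at least 1000 UMIs, 67 with at least 2 *Apoe* UMIs, 128 without enzymes, 23 without deprecated features, 117 with the slide as a block (added) and 4 to 97 with a section left out, where the lone section of a genotype is assumed to vary like the others. Against the macrophage-marker spots, 8 calls became 0 by DESeq2, 5 with 100 spots, 97 with 400 spots and 0 to 25 with a section left out. The count of lists with a higher share in every section, 12, became 0 with no thinning, 5 when thinned to UMIs of other genes than enzymes and 5 with at least 1000 UMIs. Directions turned for *Tmed6* (0.0126, nearest totals without Ehmt2 +/+ replicate 2), *Gpx3* (-0.0574 without enzymes, and -0.13 to 0.83 with a section left out, the lowest without Ehmt2 fl/fl replicate 2), *Cd74* (-0.0705 with 100 spots, -0.15 without enzymes) and, in the genotype difference, *Gngt2* (0.0366 with at least 2 *Apoe* UMIs), *Reg3d* (0.0800) and *Ccdc88b* (0.22, both with at least 1000 UMIs), and the cause was not tested. Of 1292 alternative values for single genes and lists, 849 were counted as unchanged, 238 lost the call, 190 gained it, 7 moved and 8 turned. For a gene, unchanged meant the same direction and call, or the same direction where no adjusted p was given. For the share of a list it meant the same direction, and for its summed level a value within 1 SD of the reported one. No paired analysis was possible because the labels give no replicate numbers (those used here only name the sections), other than the slide block above, in which each slide holds 1 section of each genotype. Depth limits all of this: 445 members rest on 1 *Apoe* UMI.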
